A study of Rattus norvegicus with 4 samples.

Results

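The loci described here are long noncoding RNA (lncRNA) transcripts listed at genes of the protein-synthesis machinery in rat cortical astrocytes. They were chosen by gene name: names beginning with Eif (initiation factors), Eef (elongation factors), Mrpl or Mrps (large and small subunit proteins of the mitochondrial ribosome), and names of aminoacyl-tRNA synthetases, written as 1 capital letter followed by ars, with or without a final 2. The rule found 93 of the 20524 listed transcripts, which summed to 60 of 17290 loci: 20 Eif, 4 Eef, 12 Mrpl, 9 Mrps and 15 synthetase loci. One of the Mrps names, Mrps34andNme3, joins Mrps34 and Nme3. Of the 60 loci, 59 matched a rat gene in the RefSeq table of assembly GRCr8, all 59 of them protein-coding genes, and 9 under a newer spelling (Eif3s9 is now Eif3b, and Aars is now Aars1). Each locus is therefore a listed noncoding transcript at a coding gene, so reads from that gene's messenger RNA may be among its counts.

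The cells were primary cortical astrocytes of newborn Wistar rats, grown on coverslips above neurons and separated from them by paraffin dots. Control cells (2 libraries) were untreated. The other cells (2 libraries) were deprived of oxygen and glucose (OGD), in glucose-free medium at 1% O2 for 45 min, and then kept for 24 h in normal medium under normal oxygen, which the series calls ischemic preconditioning. Whether replicates are separate cultures is not stated in the labels; the p-values reflect how much these libraries vary, and that variation may be technical.

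Protein synthesis starts when initiation factors bring the small ribosomal subunit and the initiator tRNA to the messenger RNA, proceeds through elongation factors that deliver charged tRNAs and move the ribosome, and depends on tRNA synthetases that attach each amino acid to its tRNA. Mitochondria keep a translation system of their own, with a separate ribosome and, for most amino acids, separate synthetases, all encoded in the nucleus, to make core subunits of the respiratory chain. Cells short of oxygen or nutrients commonly slow cytosolic translation, by phosphorylation of the initiation factor eIF2 (the integrated stress response). They also do so through 4E-BP1, an inhibitor that binds the cap-binding protein eIF4E when mTOR is inactive.

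The listed lncRNA counts per library ranged from 2513804 to 2646300, between 9.98% and 10.6% of the library totals behind the deposited FPKM values. The 60 loci took 0.155% and 0.148% of the lncRNA counts in the control libraries (replicates 1 and 2) and 0.151% and 0.164% in the OGD libraries. Loci named after astrocyte markers were few: 5 loci answered to 14 marker names. In the order of replicates 1 and 2, they summed to 51.0 and 34.3 CPM in control against 64.4 and 33.8 CPM after OGD. The astrocyte sum was thus lower in the libraries numbered 2 in both groups. Gfap, the astrocyte filament gene, led the 5 loci with 51 to 139 counts in each library. A locus listed as Glul, on chromosome 12, was at 0 in 3 libraries. It was matched by name only, and whether it lies at the Glul gene was not tested. Loci of fibroblast and meningeal names (4 loci for 10 names) summed to 681 and 3012 CPM in the control libraries and to 1095 and 2707 CPM in the OGD libraries, each given in the order of replicates 1 and 2. That sum, and each of its 4 loci, was higher in the libraries numbered 2 than in those numbered 1. The gap was largest at Lox, with 4 and 3202 counts in the control libraries and 4 and 2684 in the OGD libraries. At Col3a1 it was smaller, with 127 and 170 counts against 159 and 187. The endothelial and mural sum, below, was higher in the OGD libraries, as was 1 neuronal locus. The part of these sums in the results was not tested. Microglial names (4 loci for 12 names) summed to between 15.1 and 109 CPM. Oligodendrocyte lineage names (4 loci for 11) summed to between 7.91 and 17.1 CPM. In the order of replicates 1 and 2, neuronal names (6 loci for 14) summed to 90.6 and 120 CPM in control against 111 and 121 CPM after OGD. Endothelial and mural names (3 loci for 12) summed to 4.37 and 8.37 CPM in control against 32.4 and 25.4 CPM after OGD. The rise in the endothelial and mural sum was at 1 locus, Abcc9. It had 6 and 17 counts in the control libraries and 85 and 54 in the OGD libraries. Pecam1 had 4 and 2 counts in control against 0 and 6 after OGD, and Tek 2 and 2 against 1 and 1. Within the neuronal sum, which Gria2 led with 187 to 275 counts in each library, the locus of the synaptic vesicle gene Syn1 had 2 and 1 counts in the control libraries and 98 and 45 in the OGD libraries. Its log2 fold change was 5.50 (SE 0.63; adjusted p = 0.185 in edgeR and 6.4e-05 in DESeq2), and its part in the results was not tested. CPM here are counts scaled to the total of the tested loci after TMM adjustment.

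No locus of the protein-synthesis machinery passed the threshold between OGD and control. Enough counts for the test were present at 42 of the 60 loci. In edgeR's quasi-likelihood test, 0 of these 42 had an adjusted p below 0.05, where 0.0835% of all 9581 tested loci did. At an unadjusted p below 0.05 there was 1 locus, Fars2, against a background of 2.33%, and DESeq2 also called 1, again Fars2, against a background of 0.397%. Of the 42, 40 had a log2 fold change between -1 and 1, a share of 95.2% beside 95.6% of all tested loci. The exceptions were Fars2 and Mrpl35. In 12 of the 42 both OGD libraries were above both controls, and in 5 both were below, where each arrangement held for 14.0% of all tested loci. In bulk RNA of this kind, fewer cells of a type and less RNA per cell cannot be told apart. The median log2 fold change was 0.11 over the 42 and -0.0018 over all tested loci.

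Fars2 encodes the mitochondrial phenylalanyl-tRNA synthetase, which charges the mitochondrial tRNA of phenylalanine. Its listed transcript, a spliced form of 727 bases, lies on chromosome 17 from 29006984 to 29026346 in the coordinates of the tables, and overlaps no other listed locus. The control libraries held 2 and 2 counts, and the OGD libraries 49 and 66. Both OGD libraries were far above both controls, and the replicates of each group lay close together. In CPM it went from 0.728 and 0.797 to 18.5 and 27.5, or 0.762 ± 0.0488 in control and 23.0 ± 6.41 after OGD (SD, n = 2 per group). As a ratio of summed counts per library total, OGD exceeded control 29.9-fold, with an exact 95% counting interval of 11.4 to 112, which covers counting error only. By edgeR's quasi-likelihood test the log2 fold change was 4.83 (SE 0.48), with an unadjusted p of 2.1e-04 and an adjusted p of 0.110. DESeq2 put it past the threshold, with an adjusted p of 1.2e-04. In edgeR the adjusted p was 0.137 with transcripts as deposited and 0.0526 with the replicate number as a block. With each library left out in turn, the log2 fold change stayed between 4.52 and 5.10.

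In FPKM, which allow for transcript length, Fars2 stood at 0.110 and 0.104 in control and at 2.70 and 3.63 after OGD. At Eif2s2, by comparison, the most abundant listed transcript stood at 28.9 and 34.6 FPKM in control and 30.2 and 37.3 FPKM after OGD. The other 8 loci of mitochondrial synthetases (names ending in 2) had no gap of that size between the groups. Wars2, for tryptophan, had 21 and 22 counts in the control libraries and 13 and 15 in the OGD libraries, both OGD libraries below both controls (log2 fold change -0.56, SE 0.37). Aars2, for alanine, had 18 and 11 counts in the control libraries and 7 and 11 in the OGD libraries, with overlapping groups (log2 fold change -0.60, SE 0.51). Nars2, for asparagine, had 32 and 41 counts in the control libraries and 27 and 36 in the OGD libraries. The remaining loci of this kind had too few counts for the test, among them Vars2, for valine, with 4 and 8 counts in the control libraries and 11 and 6 in the OGD libraries.

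**Figure D1:**
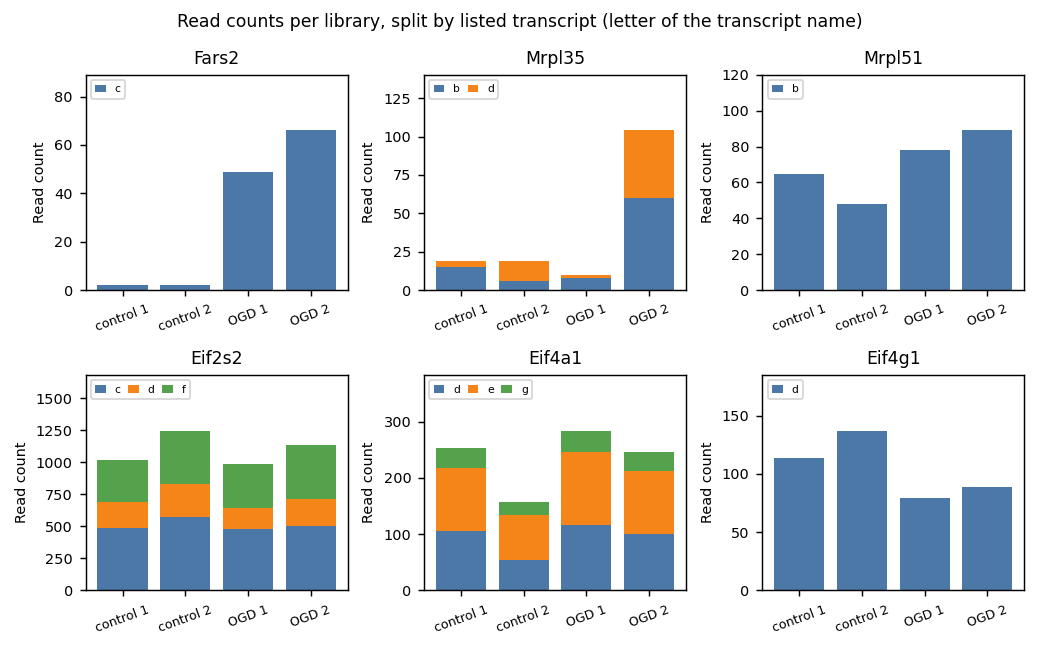
Read counts (vertical axes) in the 4 libraries at 6 loci, with bars stacked by listed transcript, named by its letter. Fars2 has 2 counts in each control library against 49 and 66 after OGD, the excess at Mrpl35 is in OGD replicate 2 alone (104 counts), and at Eif4g1 both OGD libraries (79 and 89) are below both controls (114 and 137).

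Synthetases of the cytosol were listed at 6 loci, and all 6 were tested. Aars, for alanine, had 57 and 72 counts in the control libraries and 50 and 44 in the OGD libraries, or 24.7 ± 5.62 and 18.6 ± 0.346 CPM (SD, n = 2). The groups did not overlap, but the log2 fold change of -0.41 had an SE of 0.29. Sars, for serine, had 40 and 73 counts in the control libraries and 39 and 56 in the OGD libraries, so that the libraries numbered 2 were high in both groups (log2 fold change -0.20, SE 0.46). Yars, for tyrosine, was level at 64 and 68 counts in the control libraries and 71 and 60 in the OGD libraries (log2 fold change 0.04, SE 0.25). Kars, whose gene serves cytosol and mitochondria, had 40 and 19 counts in the control libraries and 45 and 29 in the OGD libraries, here with number 2 the lower in both groups. The 6 loci summed to 98.8 ± 15.2 CPM in control against 98.4 ± 11.8 CPM with OGD (SD, n = 2).

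Proteins of the mitochondrial ribosome had 21 loci, of which 13 were tested. Of these 13, 11 had a log2 fold change above 0 and 2 below, where 4765 of all 9581 tested loci were above 0. In 8 of the 13 both OGD libraries were above both controls, and in 0 were both below. For each of these arrangements of the libraries, the share over all tested loci was the 14.0% given above. None of the 13 differences passed the threshold; the smallest unadjusted p was 0.0741, at Mrpl51. These 13 had a median log2 fold change of 0.31, which lay between 0.14 (without OGD replicate 2) and 0.58 (without control replicate 1) when a library was left out. Scaled to the totals implied by FPKM it was 0.27, where the median of all tested loci was -0.02. Counting all 21 loci, tested or not, the sums were 239 and 223 CPM in the control libraries and 266 and 311 CPM in the OGD libraries. Without Mrpl35 they were 233 and 215 CPM in control against 262 and 268 CPM after OGD, still without overlap. With 2 libraries against 2, an exact two-sided permutation test cannot go below p = 0.333, so these sums were not tested.

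In the large subunit, Mrpl51 had 65 and 48 counts in the control libraries and 78 and 89 in the OGD libraries, or 21.4 ± 3.20 and 33.2 ± 5.46 CPM (SD, n = 2). Its log2 fold change was 0.63 (SE 0.28), with an adjusted p of 1.00 in edgeR. Mrpl48 had 82 and 67 counts in the control libraries and 80 and 96 in the OGD libraries, summed over 3 transcripts (log2 fold change 0.31, SE 0.27). In CPM the lower OGD library, at 30.1, was barely above the higher control, at 29.8. Mrpl52, with 4 overlapping transcripts and the highest CPM of the mitochondrial ribosomal loci, was nearly level, at 57.7 ± 2.35 CPM in control against 61.3 ± 2.32 CPM with OGD (SD, n = 2; log2 fold change 0.09, SE 0.20). In CPM its lower OGD library, at 59.6, was barely above its higher control, at 59.4. Its counts overlapped, with 154 and 149 in the control libraries and 167 and 143 in the OGD libraries.

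Mrpl35 differed in 1 library only. It had 19 and 19 counts in control, 10 in OGD replicate 1 and 104 in OGD replicate 2. Both of its listed transcripts, which overlap between 99739650 and 99746525 on chromosome 4, were highest there, with 44 and 60 counts. The log2 fold change of 1.69 (SE 1.09) became -0.93 without OGD replicate 2. Mrpl13, too sparse to be tested, was also uneven within the OGD group. It had 0 counts in both controls, 10 in OGD replicate 1 and 1 in OGD replicate 2. The ratio is 3.81-fold when the controls are set to the 3 counts that a group at 0 still allows. It makes no allowance for counting error in the OGD libraries and is not a lower bound.

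In the small subunit, the 7 tested loci had log2 fold changes between -0.02 and 0.47. Mrps18c had 37 and 27 counts in the control libraries and 46 and 38 in the OGD libraries, or 12.1 ± 1.92 and 16.6 ± 1.05 CPM (SD, n = 2; log2 fold change 0.45, SE 0.30). Mrps21 had 54 and 49 counts in the control libraries and 71 and 53 in the OGD libraries (log2 fold change 0.32, SE 0.26). Mrps30, by contrast, was level at 89 and 82 counts in the control libraries and 89 and 73 in the OGD libraries (log2 fold change -0.02, SE 0.23). Mrps11, Mrps24 and Mrps31 also had both OGD libraries above both controls in CPM, on 10 to 31 counts per library, and Mrps27 did not.

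**Figure D2:**
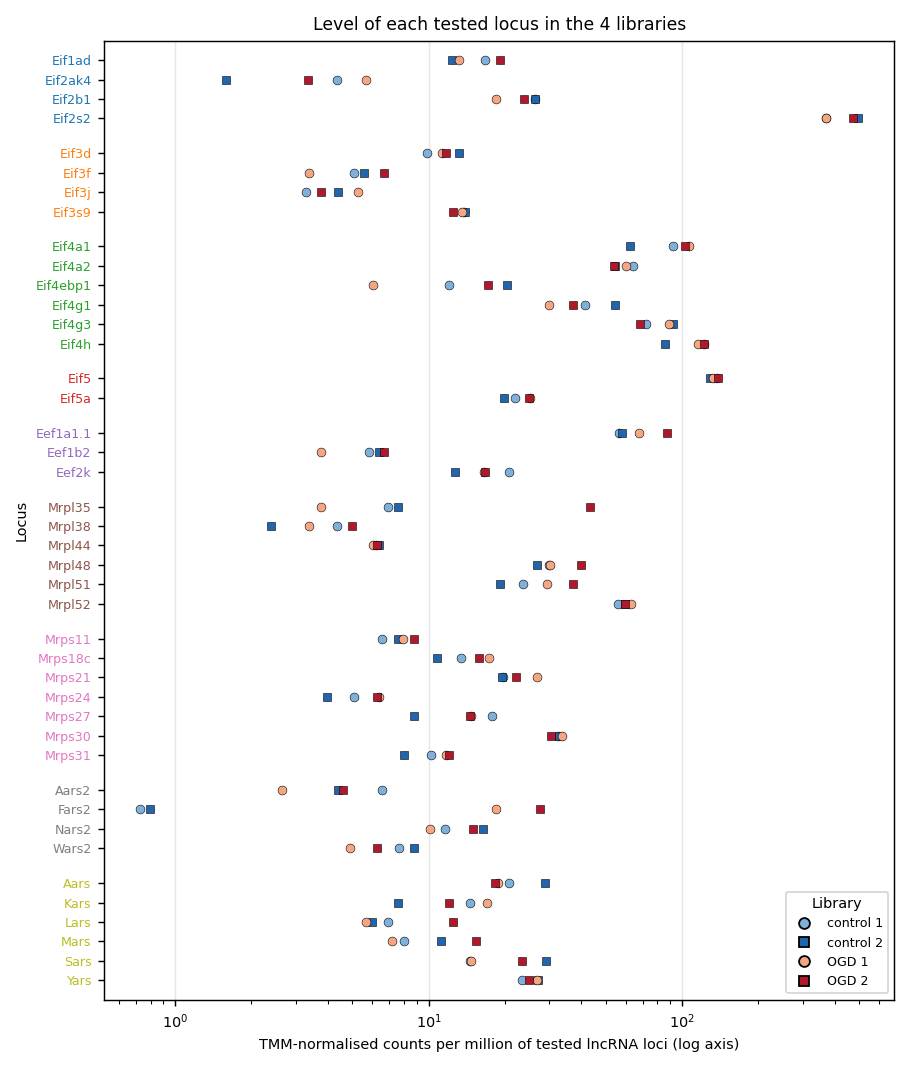
Level of each of the 42 tested loci (rows, coloured by role) in TMM-normalised CPM on a log axis, 1 point per library, circles for replicate 1 and squares for replicate 2. Fars2 is at 0.728 and 0.797 CPM in control against 18.5 and 27.5 CPM after OGD, and at most other loci the points of the groups lie among each other.

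Initiation factors gave most of the counts in each library, for example 2807 of 4032 in control replicate 1 and 2705 of 4130 in OGD replicate 2. The most abundant of them was Eif2s2, which encodes the beta subunit of eIF2, the factor that carries the initiator tRNA. It had 1020 and 1247 counts in the control libraries and 986 and 1138 in the OGD libraries, or 434 ± 88.9 and 423 ± 72.9 CPM (SD, n = 2). The groups overlapped, with the libraries numbered 2 the higher in each, and the log2 fold change was -0.04 (SE 0.24). Its 3 listed transcripts kept similar shares. The transcript lettered c took between 44.5% and 48.6% of the counts in the 4 libraries, f between 32.3% and 37.4%, and d between 16.5% and 20.8%. Per length, f was the highest of the 93 transcripts, at a mean of 32.7 FPKM over the 4 libraries, and c followed as the third at 9.57 FPKM.

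Around eIF2, Eif2b1, which encodes a subunit of the nucleotide exchange factor eIF2B, had 72 and 66 counts in the control libraries and 49 and 57 in the OGD libraries, or 26.3 ± 0.0666 and 21.1 ± 3.75 CPM (SD, n = 2). Both OGD libraries were below both controls, with a log2 fold change of -0.31 (SE 0.27). One of its transcripts overlaps another listed locus. Eif2ak4, the gene of the kinase GCN2 that senses uncharged tRNA, had 12 and 4 counts in the control libraries and 15 and 8 in the OGD libraries. Eif2ak1, of the heme-regulated eIF2 kinase, had 8 and 4 counts in the control libraries and 3 and 4 in the OGD libraries and was not tested. Of the 6 loci at eIF3 subunits, 4 were tested, and these 4 had log2 fold changes between -0.09 and 0.24.

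The eIF4 group, which binds the cap and unwinds the messenger RNA, held differences in both directions. Eif4g1, the scaffold of the cap-binding complex, had 114 and 137 counts in the control libraries and 79 and 89 in the OGD libraries, or 48.0 ± 9.26 and 33.4 ± 5.20 CPM (SD, n = 2). Both OGD libraries were below both controls (log2 fold change -0.52, SE 0.27, adjusted p = 1.00 in edgeR). Eif4a1, an RNA helicase of the same complex, had 254 and 157 counts in the control libraries and 284 and 246 in the OGD libraries, or 77.5 ± 21.1 and 105 ± 3.12 CPM (SD, n = 2). Here both OGD libraries were above both controls (log2 fold change 0.43, SE 0.26), and control replicate 2 was the low one at each of its 3 transcripts. Eif4ebp1, which encodes 4E-BP1, had 33 and 51 counts in the control libraries and 16 and 41 in the OGD libraries (log2 fold change -0.49, SE 0.60), with overlapping groups. Eif4h, a cofactor of the helicase, had 335 and 215 counts in the control libraries and 306 and 292 in the OGD libraries (log2 fold change 0.19, SE 0.24). Eif4g3 and Eif4a2 had overlapping groups as well.

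Eif5, which triggers GTP hydrolysis by eIF2 at the start codon, was level at 379 and 324 counts in the control libraries and 352 and 334 in the OGD libraries (log2 fold change 0.03, SE 0.18). Eef1a1.1, at the gene of elongation factor 1 alpha 1, had 155 and 146 counts in the control libraries and 180 and 210 in the OGD libraries, or 57.3 ± 1.25 and 77.7 ± 14.0 CPM (SD, n = 2). Both OGD libraries were above both controls, with a log2 fold change of 0.44 (SE 0.23). This gene and Eif4a1 have near-identical copies in mammalian genomes, so reads could have been split or shared, and their values are uncertain to that extent. Eef2k, of the kinase that inhibits elongation factor 2, had 57 and 32 counts in the control libraries and 44 and 40 in the OGD libraries (log2 fold change -0.01, SE 0.35). Eef1b2 had 16 and 16 counts in the control libraries and 10 and 16 in the OGD libraries (log2 fold change -0.23, SE 0.46).

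**Figure D3:**
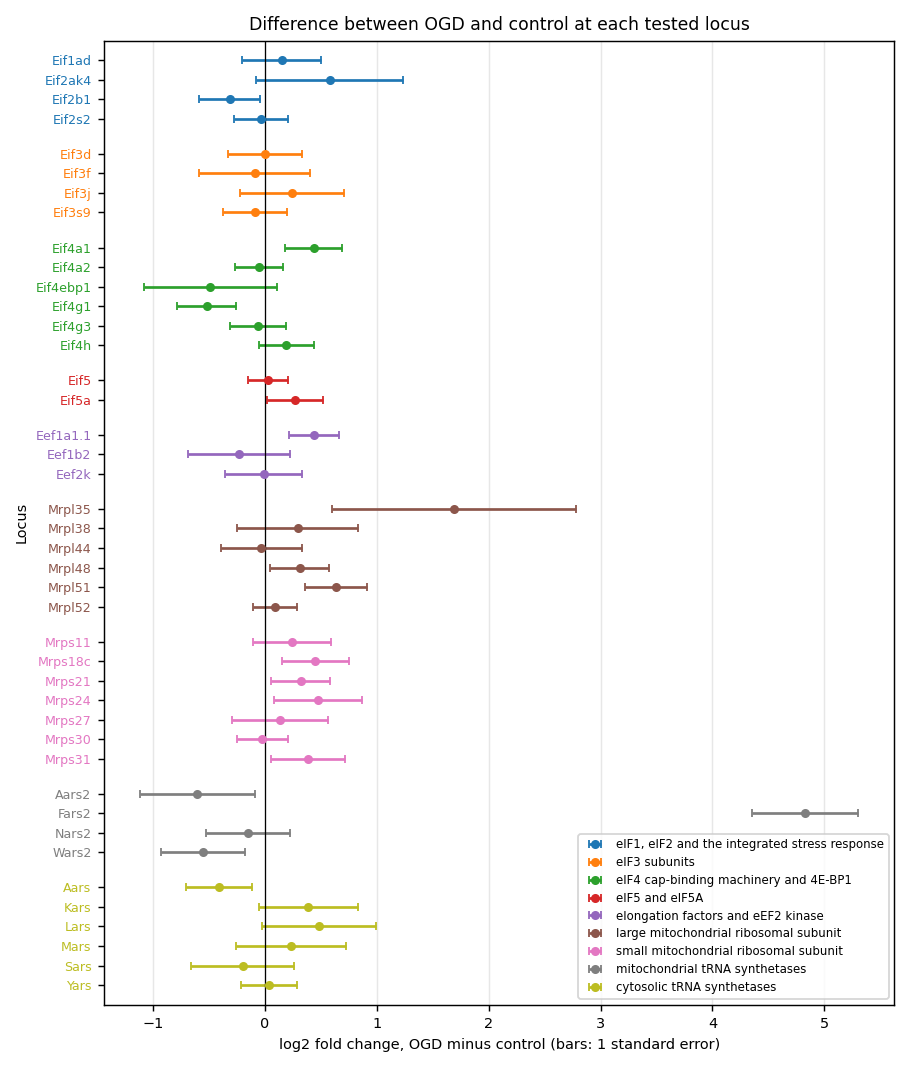
Log2 fold change of OGD minus control (horizontal axis, bars are 1 SE from the edgeR fit) at each of the 42 tested loci, coloured by role. Fars2 stands at 4.83, Mrpl35 at 1.69 with an SE of 1.09, and the other 40 loci between -1 and 1. Of 13 mitochondrial ribosomal loci 11 are above 0, where 4765 of all 9581 tested loci are.

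Set by compartment, the 30 cytosolic loci summed to 1240 ± 65.9 CPM in control against 1269 ± 109 CPM after OGD, and the 30 mitochondrial loci to 269 ± 7.83 and 346 ± 43.2 CPM (SD, n = 2). The 4 libraries gave 1193, 1287, 1192 and 1346 CPM for the cytosolic loci, in the order control 1, control 2, OGD 1 and OGD 2, so that the groups overlapped. The mitochondrial loci gave 274, 263, 315 and 376 CPM, both OGD values above both controls. Without Fars2 they gave 273, 262, 296 and 349 CPM. These sums still include Mrpl35, at 6.92, 7.57, 3.77 and 43.4 CPM in the same order.

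**Figure D4:**
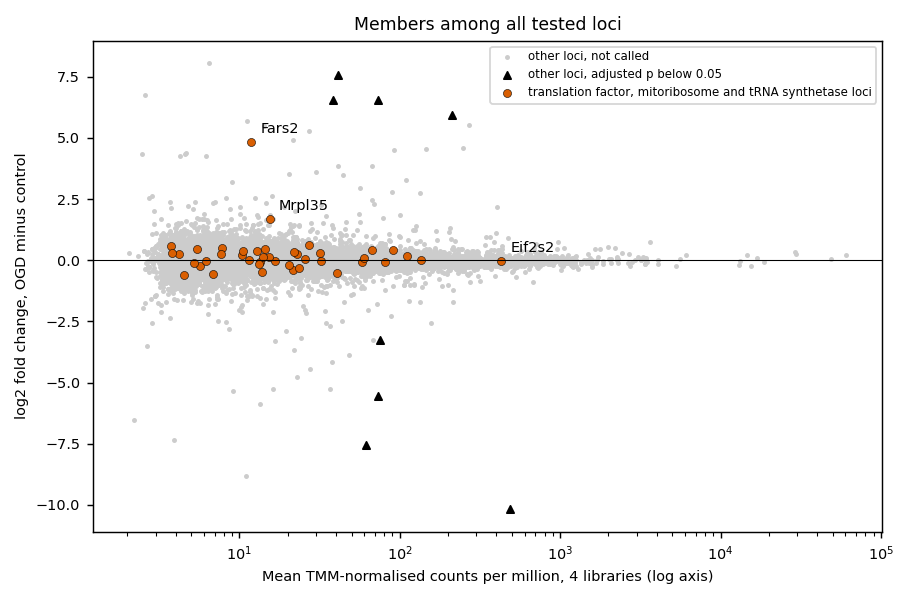
Log2 fold change of OGD minus control against mean CPM (log axis) for all 9581 tested loci, in grey, with the 8 that passed the adjusted threshold as black triangles and the 42 loci of the translation machinery in orange. All of the orange points except Fars2 and Mrpl35 lie between -1 and 1.

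The 18 loci without enough counts for the test had at most 11 counts in any library. Among them were Eif2ak1, Eif2b4, Eif3k, Eif3s10, Eef1a2, Mrpl3, Mrpl13, Mrpl16, Mrpl47, Mrpl50, Mrpl54, Mrps12, Mrps34andNme3, Ears2, Lars2, Rars2 and Vars2. The filter on low counts left them out, so no test of a difference was made there. Mrpl3 had 3 and 3 counts in the control libraries and 7 and 8 in the OGD libraries, and Mrps12 had 7 and 8 against 5 and 2.

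The 93 transcripts were between 237 and 3309 bases long, with a median of 587, and 642.5 for all 16282 transcripts with AceView names. AceView marks 32.3% of them as unspliced, against 54.2% of all transcripts it names. Of the 60 loci, 22 held several transcripts, 26 transcripts overlapped another of the same gene, and 6 transcripts at 4 loci (Eif2b1, Eif3k, Eif4g3 and Eif5) overlapped another listed locus. Tested as single transcripts, 54 of the 93 had enough counts; edgeR called 0 of them (0.00918% of all transcripts tested were called), and 1, at Fars2, had an unadjusted p below 0.05 (2.68% of all).

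Related genes outside the naming rule gave no called locus either. Of the genes of the integrated stress response and of mTOR control, 13 loci were listed and 10 tested, with 0 higher and 0 lower by edgeR's adjusted p, 1 at an unadjusted p below 0.05, and 0 in DESeq2. That 1, named after its values were seen, was Mknk1, a kinase gene whose product phosphorylates the cap-binding protein eIF4E. It had 151 and 171 counts in the control libraries and 72 and 89 in the OGD libraries (log2 fold change -0.94, SE 0.27, unadjusted p = 0.0195 and adjusted p = 1.00 in edgeR). Ddit3 and Atf4, transcription factor genes of the integrated stress response, had overlapping groups, with 301 and 322 counts in the control libraries and 273 and 432 in the OGD libraries for Ddit3 and 33 and 23 against 54 and 19 for Atf4. In this list the groups did not overlap at 5 of the 10 tested loci, with OGD above at 2 and below at 3. That share over all tested loci was 28.0%. Among the 2 was Myd116, named after its values were seen. It had 8 and 11 counts in the control libraries and 13 and 16 in the OGD libraries (log2 fold change 0.66, SE 0.47). Of other cytosolic translation factors 9 loci were listed and 7 tested, of other mitochondrial translation genes 11 and 8, and of other synthetase genes 3 and 2. In each of these 3 lists edgeR called 0 in either direction, 0 had an unadjusted p below 0.05, and DESeq2 called 0. The 8 tested loci of the list of other mitochondrial translation genes had overlapping groups at every locus and a median log2 fold change of 0.08, beside 8 of 13 without overlap and a median of 0.31 at the Mrpl and Mrps loci. One of the 8, Ndufa7 (log2 fold change 0.23, SE 0.31), is a respiratory chain gene and not a translation gene. The counts of this list and its median include it. Among the 8 are genes of mitochondrial ribosomal proteins under other names, with log2 fold changes of 0.16 at Dap3 (SE 0.32), 0.01 at Chchd1 (SE 0.27), -0.05 at Ptcd3 (SE 0.43) and 0.22 at Aurkaip1 (SE 0.30), likewise named after their values were seen. The difference between the lists was not tested. Pabpc1, of the poly(A)-binding protein and likewise named after its values were seen, was the most abundant, with 3654 and 3682 counts in the control libraries and 4494 and 5080 in the OGD libraries (log2 fold change 0.45, SE 0.19, adjusted p = 1.00 in edgeR).

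Promoters of the host genes were read from RefSeq on GRCr8, as windows of 300 bases from 250 before to 50 after the annotated start, and 53 windows matched 51 of the 59 genes. Motifs were searched on both strands: CCGGAAG, the core bound by ETS transcription factors, TGATGCAA, bound by ATF4 with a C/EBP partner, and ACGTG, the core of hypoxia response elements, which also lies within the palindromic E-box. CCGGAAG was in 32.1% of the 53 windows and in 10.7% of 21851 windows of protein-coding genes, and ACGTG was in 50.9% and 19.8%. TGATGCAA was in 7.55% and 0.728%. The 53 windows also held more CG dinucleotides, with a median of 21 against 11, and a GC content of 58.7% against 55.0%. A match is a description of the letters and not a bound site. The windows of Fars2 (the locus with the largest difference), Eif2s2 (the most abundant) and Aars1 (a synthetase whose OGD libraries were both below control) are shown 5′ to 3′ on the gene's strand, with any of the 3 motifs in capitals.
Fars2, chr17:28951502-28951801, minus strand: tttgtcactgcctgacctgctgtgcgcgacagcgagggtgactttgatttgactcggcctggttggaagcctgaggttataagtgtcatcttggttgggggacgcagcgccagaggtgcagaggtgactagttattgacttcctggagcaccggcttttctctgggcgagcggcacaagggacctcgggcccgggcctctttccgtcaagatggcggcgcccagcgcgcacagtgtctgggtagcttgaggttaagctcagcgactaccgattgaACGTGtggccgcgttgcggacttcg
Eif2s2, chr3:163855521-163855820, minus strand: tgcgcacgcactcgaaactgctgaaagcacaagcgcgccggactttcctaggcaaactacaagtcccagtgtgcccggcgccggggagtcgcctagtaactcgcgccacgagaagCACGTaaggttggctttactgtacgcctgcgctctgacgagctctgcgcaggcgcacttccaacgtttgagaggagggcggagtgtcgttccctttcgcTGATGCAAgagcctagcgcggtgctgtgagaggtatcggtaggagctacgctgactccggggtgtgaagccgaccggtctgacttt
Aars1, chr19:55908232-55908531, plus strand: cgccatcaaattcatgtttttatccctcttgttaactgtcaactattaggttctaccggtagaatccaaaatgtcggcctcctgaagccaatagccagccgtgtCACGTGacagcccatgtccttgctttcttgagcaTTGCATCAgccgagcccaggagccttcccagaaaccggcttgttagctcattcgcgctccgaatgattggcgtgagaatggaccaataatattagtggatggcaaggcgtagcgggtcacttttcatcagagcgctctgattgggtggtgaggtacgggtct

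In these windows Fars2 holds ACGTG just downstream of the start, Eif2s2 holds TGATGCAA and, on the opposite strand, ACGTG, and Aars1 holds the E-box and, on the opposite strand, TGATGCAA. TGATGCAA was also in the windows of Mars1 and Yars1. Of these 4 loci, the groups overlapped at Eif2s2, Mars and Yars and not at Aars. Mars had 22 and 28 counts in the control libraries and 19 and 37 in the OGD libraries. Whether the listed transcripts start in these windows was not tested, since the tables and the promoter windows use different coordinates.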

How the data were processed

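The authors deposited 1 table per library with read counts and FPKM for the same transcripts, per the file headers. The submitters' processing notes name HISAT2, StringTie and the mouse build mm9; the tables list rat identifiers, so their coordinates are printed without a build name. How reads were counted, and whether strand was used, is not stated in these sources. The deposited FPKM values gave transcript levels per length and the library totals, on which all transcripts above 0 agreed within 0.1%.

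Counts were summed per gene name and chromosome over the whole table, with names from the Ensembl column, the StringTie gene identifier or the AceView or RefSeq name, in that order. The test was that of edgeR 4.0.16 under R 4.3.3 (filterByExpr, TMM, quasi-likelihood F test on group), with Benjamini-Hochberg adjustment over 9581 loci and a threshold of 0.05; DESeq2 1.42.0 was an alternative. SE was approximated as the size of the log2 fold change over the root of F. On simulated counts for these 9581 loci, 10% of loci changed 2-fold, 52% of those changed 4-fold and 100% of those changed 16-fold were called. Of the loci left unchanged, 8 were called. There were 50 changed loci per fold, drawn from the more abundant of the tested loci, and the simulated spread followed the trend across loci. The shares therefore need not hold at sparser loci or at loci that vary more than the trend. Members and lists were chosen with earlier results of these data known. Fold changes are given for members with the 6 smallest unadjusted p in each direction or the 3 highest CPM in each of the 5 name classes. One member is not reported here by name.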

Additional observations from a re-analysis of the deposited data

How the results depend on the processing

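The count of 0 called translation loci became 1 (Fars2) with DESeq2 and was 0 under every other alternative, including each library left out (0 to 0). Over all loci the count of 8 became 38 in DESeq2, 0 with low counts kept in (403 at an unadjusted p below 0.05), 1 with transcripts as deposited, 21 with the replicate number as a block, and 0 to 12 with each library left out; the cause was not tested, except that the unfiltered test covers 16711 loci. With the replicate block, Fars2 had an adjusted p of 0.0526 and no translation locus passed. What the number marks is not stated; across loci, the departures from the group mean of libraries that share it had a correlation of 0.300. Of 229 values of the 23 members given with fold changes, 210 stayed on the same side with the same sign, 1 came to pass and 18 turned sign, at 10 loci of which none had passed. With transcripts as deposited, where a locus is read at its transcript with the most counts, Eif5 was at -0.0815 (its other transcript at 0.25) and Mrps30 at 0.0069 (its other at -0.18). Eif5 was at -3.5e-04 with totals implied by FPKM, and Eef2k at 0.0187 with the replicate block. With a library left out, log2 fold changes lay between -0.69 and 0.14 at Eef1b2, -0.31 and 0.39 at Eef2k, -0.23 and 0.20 at Eif2s2, -1.42 and 0.0948 at Eif4ebp1, -0.0335 and 0.47 at Eif4h, -0.0136 and 0.0799 at Eif5, -0.93 and 2.59 at Mrpl35, -0.0821 and 0.0431 at Mrps30, -0.61 and 0.39 at Sars, and -0.0604 and 0.16 at Yars. A lone library is assumed to vary like the other group. At this depth most simulated 2-fold changes were missed.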
